A study of Homo sapiens with 7 samples.

Results

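KCNIP4 and 9 further potassium channel genes of heart muscle were followed in human cardiomyocytes given an antisense oligonucleotide (ASO) against MYH7B. The 10 genes are KCNIP4, KCND3, KCNIP2, KCNH2, KCNQ1, KCNJ2, KCNJ3, KCNJ5, KCNJ11 and KCNA5, out of 60234 genes in the deposited expression table. KCNIP4 was chosen by its measured TPM, for its strong fall between the groups compared here, so its values are a description and carry no test. The 9 others were added by name as the main cardiac potassium channel genes.

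Messenger RNA was sequenced after poly-A selection from cardiomyocytes of WTC-11, an established human induced pluripotent stem cell line. All cultures were differentiated with small molecules, matured for 35 days and then exposed for 96 h to 2 uM of an ASO, applied passively. By the labels the groups differed in the ASO, which was scrambled in 3 libraries and directed at MYH7B in 4. The study asked what the MYH7B transcript, treated in its title as a long noncoding RNA, regulates in these cells. Nothing in the labels says that replicates of a group were separate differentiations, so p-values measure only the spread between these samples, which may be technical. All libraries are of a single line, and cultured cardiomyocytes of this kind are known to be less mature than adult heart muscle.

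Potassium channels carry the outward currents that end the cardiac action potential and hold the resting potential. The transient outward current flows through pore proteins of the Kv4 family, whose surface expression and gating are set by the KChIP proteins, small calcium sensors encoded by KCNIP genes. In human heart KChIP2 is the main KChIP, whereas KChIP4 is best known from neurons, where some of its isoforms slow Kv4 inactivation. Delayed rectifier channels then repolarise the cell, and inward rectifiers, acetylcholine-gated channels and ATP-sensitive channels act around the resting potential.

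KCNIP4 is encoded on the minus strand at chr4:20728616-21948799 (GENCODE 29 on GRCh38), a span of 1220.2 kb for 4256 bases of annotated exon, with 10 transcripts that begin at 10 different positions. RefSeq promoter windows, which run from 250 bases before to 50 bases after an annotated start, were available for 8 of the 10 genes and 3 KCNIP4 starts (GRCh38.p14). The KCNIP4 windows lie at chr4:21948723-21949022, chr4:21697691-21697990 and chr4:20984021-20984320, all on the minus strand, and the first and last are 964.702 kb apart. They are printed with the first KCNIP2 window, chr10:101843751-101844050 on the minus strand, to show how unlike each other the alternative KCNIP4 starts are and how they compare with the KChIP gene that stayed abundant. Capitals mark the 50 bases from the annotated start onward.
KCNIP4 window 1: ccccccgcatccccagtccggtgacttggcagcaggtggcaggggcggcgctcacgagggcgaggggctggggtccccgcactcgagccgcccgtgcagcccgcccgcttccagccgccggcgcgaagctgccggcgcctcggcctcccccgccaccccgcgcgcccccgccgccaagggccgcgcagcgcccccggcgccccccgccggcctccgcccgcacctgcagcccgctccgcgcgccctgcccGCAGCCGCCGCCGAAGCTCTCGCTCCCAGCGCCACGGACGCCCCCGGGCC
KCNIP4 window 2: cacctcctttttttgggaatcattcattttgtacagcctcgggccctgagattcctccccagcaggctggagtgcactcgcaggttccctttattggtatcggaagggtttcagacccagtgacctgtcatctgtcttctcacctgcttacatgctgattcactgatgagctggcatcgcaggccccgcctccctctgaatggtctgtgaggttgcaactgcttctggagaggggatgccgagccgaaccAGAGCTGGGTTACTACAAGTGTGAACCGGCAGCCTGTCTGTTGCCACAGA
KCNIP4 window 3: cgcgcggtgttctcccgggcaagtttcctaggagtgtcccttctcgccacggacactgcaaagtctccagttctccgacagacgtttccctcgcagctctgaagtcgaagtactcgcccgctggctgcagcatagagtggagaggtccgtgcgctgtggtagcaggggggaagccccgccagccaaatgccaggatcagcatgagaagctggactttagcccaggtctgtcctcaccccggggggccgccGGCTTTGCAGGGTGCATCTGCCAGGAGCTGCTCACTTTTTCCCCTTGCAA
KCNIP2 window 1: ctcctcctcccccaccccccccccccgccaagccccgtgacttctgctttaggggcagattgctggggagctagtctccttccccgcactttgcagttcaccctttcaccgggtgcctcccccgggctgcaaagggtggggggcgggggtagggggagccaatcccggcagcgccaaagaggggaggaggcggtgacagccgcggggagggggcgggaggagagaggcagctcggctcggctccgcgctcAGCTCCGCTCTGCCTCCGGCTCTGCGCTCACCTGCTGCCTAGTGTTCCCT
The KCNIP4 windows held 83.3%, 54.7% and 61.7% G or C and 47, 8 and 18 CG dinucleotides, against medians of 58.7% and 14 over all 35116 RefSeq windows. The KCNIP2 window held 70.3% G or C. A search on both strands for CATTCC, a core bound by TEAD factors, and AGATAA, a core bound by GATA factors, found 0 matches in the 16 windows of the member genes, where 14.0% and 10.3% of all windows had one. TATAAA occurred in 1 member window, the third of KCNH2, and in 11.5% of all windows. These are letters only, and the gene-level values below do not say which KCNIP4 start was in use.

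Levels are given in TPM, a relative transcript abundance, which is scaled by transcript length and so can be compared between genes. Each deposited column sums to 1000000 TPM, so sequencing depth is unknown. For MYH7B ASO replicate 1 the deposited values are out of row order. Apart from the settings with all 7 libraries, this library was left out of every group mean, standard deviation and test below. Its reordered values are shown beside part of them. The target fell: MYH7B had 23.0, 36.5 and 25.1 TPM with the scrambled ASO, 9.30, 5.65 and 6.31 TPM in MYH7B ASO replicates 2 to 4 and 1.29 TPM in replicate 1. The difference in mean log2(TPM + 1) for MYH7B was -1.85 (SE 0.24, limma adjusted p = 0.0109). Libraries held 14823 to 16207 genes at 1 TPM or more. The share of TPM from mitochondrially encoded genes was 27.4% to 33.6% in 6 libraries but 17.2% in replicate 1. All 12 cardiomyocyte markers were tested in limma and 0 passed, where 1.66% of all 15988 tested genes did. Of the 12, 7 had an unadjusted p under 0.05, beside 15.2% of all tested genes, and 9 were below 0 (median -0.40). Lower groups without overlap were found in 6, beside 14.1%, and higher groups without overlap in 1, beside 7.11%. The 1 higher was TNNI1, at 1198 ± 98.9 and 1662 ± 574 TPM (SD, n = 3 each; limma adjusted p = 0.404). NKX2-5 and MYH6 were also above 0, at 0.39 and 0.14. RYR2, the calcium release channel gene, had 34.1 ± 5.95 and 16.3 ± 3.32 TPM (SD, n = 3 each; limma adjusted p = 0.0536), and CASQ2, a calcium store protein gene, 7.75 ± 1.95 and 2.76 ± 0.813 TPM (limma adjusted p = 0.0637). The authors' deposited table lists RYR2 at -0.84 (their adjusted p-value, 0.000232) and CASQ2 at -0.97 (their adjusted p-value, 0.00117). Which libraries entered that table is not stated, so here and below its values may rest on another set than the limma values. It also gives normalized counts in place of TPM. Of all its genes with an adjusted p-value, 8.71% were under 0.05. The part of the cardiomyocyte markers in the potassium channel values was not tested. The 12 markers had a summed level of 10802 to 11915 TPM with the scrambled ASO and 9022 to 11283 TPM in MYH7B ASO replicates 2 to 4. In replicate 1 the sum was lower, at 8148 TPM, and RYR2 and CASQ2 had 4.39 and 2.16 TPM.

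With the scrambled ASO, KCNH2 and KCNIP2 stood highest among the members, and KCND3 and KCNJ2 lowest. KCNH2 averaged 46.7 ± 4.10 TPM and KCNIP2 41.1 ± 7.27 TPM (SD, n = 3), and their ranges overlapped. KCNA5 followed at 24.6 ± 5.39 TPM, below every KCNIP2 value. KCNQ1 at 19.1 ± 2.21 TPM, KCNIP4 at 13.8 ± 3.58 TPM and KCNJ3 at 12.8 ± 2.58 TPM came next, and each of these overlapped its neighbour in the order. KCNJ5 and KCNJ11 lay below all KCNJ3 values and overlapped with each other. KCND3 and KCNJ2 stayed under 1 TPM in all 7 libraries and were separated from KCNJ11.

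**Figure D1:**
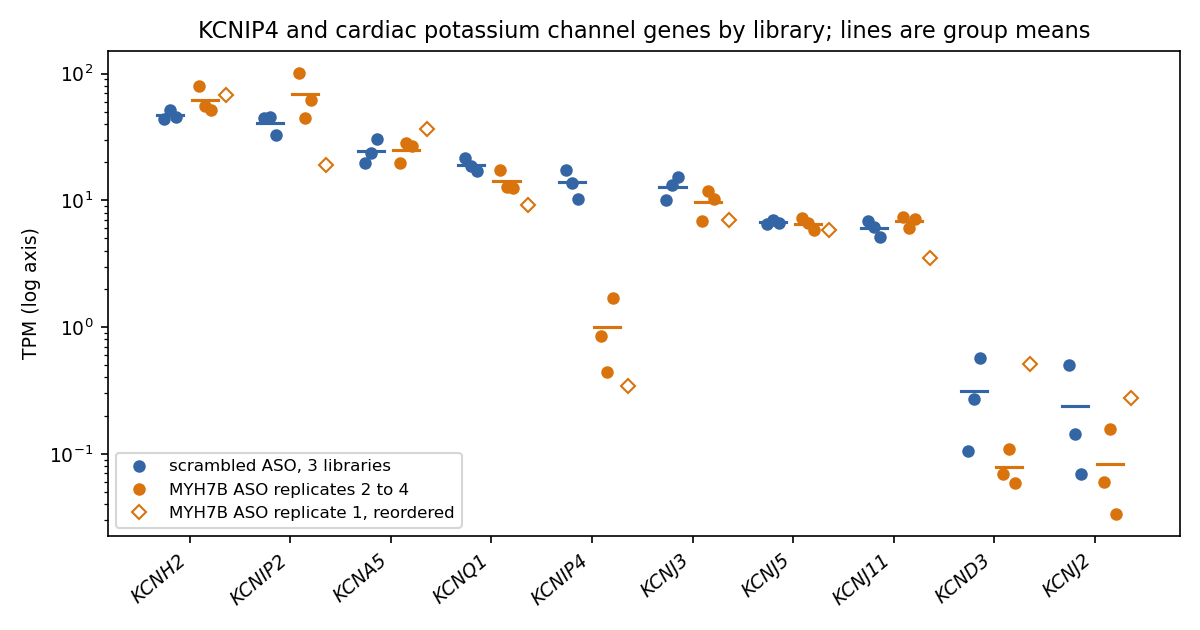
Level of each member in each library on a log axis in TPM, with members ordered by their mean with the scrambled ASO. Filled points are libraries, horizontal lines are means of 3 libraries, and open diamonds are the reordered MYH7B ASO replicate 1. KCNIP4 is the member whose groups lie far apart, at 10.3 to 17.5 TPM and 0.445 to 1.70 TPM, and KCNH2 is the other tested member whose 3 filled points per group do not overlap.

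KCNIP4 (ENSG00000185774.16) had 17.5, 13.7 and 10.3 TPM in the scrambled ASO libraries. With the MYH7B ASO the level was 0.844, 0.445 and 1.70 TPM in replicates 2 to 4, and 0.341 TPM in the reordered replicate 1. Every MYH7B ASO library was thus far below every scrambled ASO library, and the library left out was the lowest of all. The means were 13.8 ± 3.58 and 0.996 ± 0.641 TPM (SD, n = 3 each), 13.9-fold lower with the MYH7B ASO, or a fall of 92.8%. On the log2(TPM + 1) scale, which understates changes at low levels, the difference was -2.91 with a standard error of 0.30. It was the sixth lowest value among the 15988 tested genes, those averaging 1 TPM or more (rank 6), of which 1.48% were called lower in limma (adjusted p under 0.05). In the authors' deposited table, KCNIP4 had a mean normalized count of 183, and its shrunken log2 change was -1.81.

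KCNIP2 (chr10:101825974-101843920), the KChIP gene that dominates in human heart, had 44.8, 45.7 and 32.7 TPM with the scrambled ASO. In MYH7B ASO replicates 2 to 4 it had 101, 44.7 and 62.0 TPM, and 19.0 TPM in replicate 1. Replicates 2 and 4 lay above all scrambled ASO libraries, replicate 3 within them and replicate 1 below them, so the groups overlapped. The difference was 0.68 on the log2 scale, with a standard error of 0.28 and a 95% interval of 0.03 to 1.33, and did not pass over all tested genes (limma adjusted p = 0.305). Without MYH7B ASO replicate 2 the difference was 0.37, and with all 7 libraries it was 0.24. For KCNIP2 the authors' deposited table lists a shrunken log2 change of 0.63 (their adjusted p-value, 0.0318), and 8.71% of its genes with an adjusted p-value were under 0.05.

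Within the KChIP genes the make-up therefore differed between the groups. KCNIP4 accounted for 26.7%, 22.3% and 22.0% of the summed TPM of KCNIP1 to KCNIP4 with the scrambled ASO. With the MYH7B ASO it accounted for 0.813%, 0.922% and 2.61% in replicates 2 to 4 and 1.61% in replicate 1. KCNIP2 accounted for 70.8 ± 3.05% and 95.2 ± 2.38% (SD, n = 3 each), with 89.7% in replicate 1. These shares follow from the level of KCNIP4, on which that gene was picked, and carry no test. The summed KChIP level was 57.9 ± 9.72 TPM with the scrambled ASO and 72.4 ± 28.5 TPM in MYH7B ASO replicates 2 to 4, so these totals overlapped. In replicate 1 the sum was 21.1 TPM, below every scrambled ASO library, of which the lowest had 46.9 TPM. KCNIP1, a KChIP known mainly from neurons, had 2.83, 1.39 and 2.37 TPM and then 0.651, 2.12 and 0.968 TPM, a log2 difference of -0.53 (SE 0.37, limma adjusted p = 0.556). KCNIP3 stayed at or under 1.59 TPM in every library and was not tested.

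**Figure D2:**
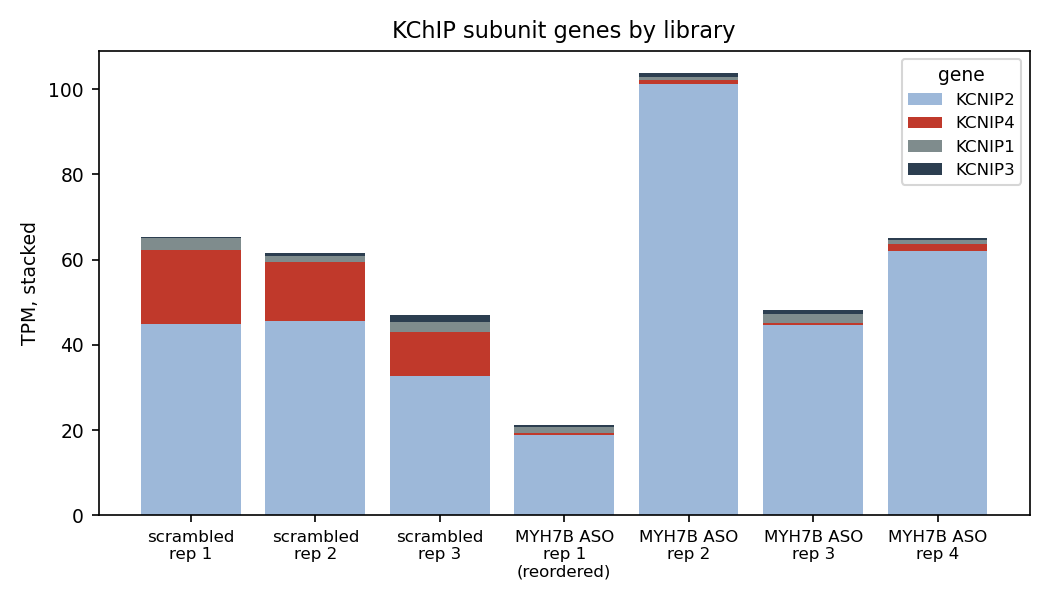
Stacked TPM of the KChIP genes KCNIP1 to KCNIP4 in each of the 7 libraries, on a linear axis from 0. The KCNIP4 segment is 10.3 to 17.5 TPM high with the scrambled ASO and 0.341 to 1.70 TPM with the MYH7B ASO, while the KCNIP2 segment ranges from 19.0 to 101 TPM in the MYH7B ASO libraries.

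The Kv4 pore genes, whose proteins the KChIPs bind, were at low levels in both groups. KCND3 (chr1:111770662-111989155), the main Kv4 pore gene of human heart, had 0.106, 0.269 and 0.564 TPM with the scrambled ASO. It had 0.0689, 0.108 and 0.0588 TPM in MYH7B ASO replicates 2 to 4 and 0.507 TPM in replicate 1. The values overlapped and all were below the 1 TPM needed for testing, with a log2(TPM + 1) difference of -0.27. For KCND3 the authors' deposited table lists a shrunken log2 change of -0.48 (their adjusted p-value, 0.162). KCND1, another Kv4 pore gene, was the Kv4 gene with the highest level, at 1.44, 1.34 and 2.07 TPM and then 4.98, 1.95 and 1.08 TPM. Its log2 difference was 0.36 (SE 0.42, limma adjusted p = 0.731). KCND1 to KCND3 together summed to 2.20 ± 0.779 TPM and 2.80 ± 2.01 TPM (SD, n = 3 each), well below the summed KChIP level. The DPP genes encode the other Kv4 auxiliary subunits: DPP6 was at or near 0 in all libraries, and DPP10 had 0.243 to 2.39 TPM with the scrambled ASO and 0.183 to 0.347 TPM in MYH7B ASO replicates 2 to 4.

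Of the 7 other members that reached the level for testing, 0 changed at a limma adjusted p under 0.05, where 1.66% of all tested genes did. KCNIP2 was the single gene of the 7 with an unadjusted p under 0.05. Their differences were above 0 in 4 and below 0 in 3, with a median of 0.02 beside -0.04 over all tested genes. KCNH2 was the 1 gene of the 7 whose groups of 3 did not overlap, which held for 21.2% of all tested genes.

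KCNH2 (chr7:150944961-150978315) encodes the hERG pore of the rapid delayed rectifier. It had 43.7, 51.4 and 45.0 TPM with the scrambled ASO, 79.1, 55.1 and 52.0 TPM in MYH7B ASO replicates 2 to 4 and 67.4 TPM in replicate 1. All 4 MYH7B ASO libraries were above all scrambled ASO libraries, by a small margin for replicate 4. The means were 46.7 ± 4.10 and 62.1 ± 14.9 TPM (SD, n = 3 each). The log2 difference was 0.38, with an interval of -0.04 to 0.80, and did not pass the test (limma adjusted p = 0.377). Without MYH7B ASO replicate 2 it was 0.20. With description numbers as the replicate block it was 0.15, a value that rests on 2 same-numbered pairs of libraries.

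KCNQ1 (chr11:2444684-2849110) encodes the pore of the slow delayed rectifier. It had 21.4, 18.8 and 17.0 TPM and then 17.5, 12.7 and 12.6 TPM, with 9.25 TPM in replicate 1. MYH7B ASO replicate 2 lay within the scrambled ASO range and the others below it. The log2 difference was -0.41, with an interval of -0.83 to 0.01 (limma adjusted p = 0.345). KCNQ1OT1, a long RNA antisense to KCNQ1 within its span, had 0.934 ± 0.0737 and 0.731 ± 0.0488 TPM (SD, n = 3 each), and without stated strand use its reads and those of KCNQ1 cannot be told apart where they overlap.

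The ratio of KCNH2 to KCNQ1 was 2.04, 2.74 and 2.65 with the scrambled ASO. With the MYH7B ASO it was 4.53, 4.35 and 4.14 in replicates 2 to 4 and 7.29 in replicate 1, so the ratio did not overlap between the groups. This ratio was computed after the values had been seen and is a description. The auxiliary KCNE subunits modify both channels. KCNE1, the partner of KCNQ1 in the slow current, had 3.35 ± 1.14 and 3.92 ± 0.726 TPM (SD, n = 3 each; log2 difference 0.20, limma adjusted p = 0.770). KCNE4, an inhibitory KCNQ1 partner, had 5.68, 2.20 and 7.09 TPM and then 0.875, 2.72 and 2.05 TPM, with 7.70 TPM in replicate 1. Its groups overlapped and its difference of -1.01 (SE 0.41) did not pass (limma adjusted p = 0.295).

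KCNA5 (chr12:5043989-5046788) encodes the pore of the ultrarapid delayed rectifier of atrial muscle. It had 19.7, 23.6 and 30.4 TPM with the scrambled ASO and 19.6, 28.5 and 26.6 TPM in MYH7B ASO replicates 2 to 4, with 36.5 TPM in replicate 1. Both groups covered nearly the same range. The log2 difference of 0.02 had an interval of -0.46 to 0.50 (limma adjusted p = 0.972), and its sign differed between alternative settings.

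Among inward rectifier genes, KCNJ2 (chr17:70168673-70180048), the main pore gene of the ventricular inward rectifier current, was barely present. It had 0.501, 0.144 and 0.0693 TPM with the scrambled ASO, 0.0596, 0.157 and 0.0334 TPM in MYH7B ASO replicates 2 to 4 and 0.275 TPM in replicate 1. These values overlapped and were not tested. Its relatives KCNJ4 and KCNJ12, pore genes of the same channel class, were higher than KCNJ2. KCNJ4 had 8.31, 7.95 and 7.52 TPM and then 6.89, 6.26 and 5.76 TPM, groups that did not overlap, with a log2 difference of -0.29 (SE 0.17, limma adjusted p = 0.469). KCNJ12 had 3.39 ± 0.374 and 3.76 ± 0.609 TPM (SD, n = 3 each; limma adjusted p = 0.855). The sum of KCNJ2, KCNJ4 and KCNJ12 was 11.6 ± 0.489 TPM and 10.1 ± 1.13 TPM (SD, n = 3 each).

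KCNJ3 (chr2:154698299-154858352) and KCNJ5 (chr11:128891356-128921035) encode the paired subunits of the acetylcholine-gated potassium channel of atrial and nodal cells. KCNJ3 had 10.1, 13.1 and 15.2 TPM and then 6.91, 11.9 and 10.3 TPM, with 6.96 TPM in replicate 1. The groups overlapped, and the log2 difference of -0.38 had an interval of -0.92 to 0.16 (limma adjusted p = 0.501). Without MYH7B ASO replicate 2 the KCNJ3 difference was -0.17. KCNJ5 was the most even of the tested members, at 6.52, 7.01 and 6.57 TPM and then 7.23, 6.61 and 5.80 TPM, with 5.79 TPM in replicate 1. Its log2 difference was -0.03, with an interval of -0.43 to 0.37 (limma adjusted p = 0.952). The KCNJ3 to KCNJ5 ratio averaged 1.91 ± 0.386 and 1.51 ± 0.482 (SD, n = 3 each), within the spread.

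KCNJ11 (chr11:17385859-17389331) encodes the pore of the ATP-sensitive channel of ventricular muscle. It had 6.83, 6.19 and 5.11 TPM and then 7.33, 5.99 and 7.15 TPM, with 3.49 TPM in replicate 1. The groups overlapped, and the log2 difference of 0.15 had an interval of -0.28 to 0.59 (limma adjusted p = 0.746). The sulfonylurea receptor gene ABCC9, whose product pairs with this pore, had 4.13 ± 1.03 and 3.23 ± 1.17 TPM (SD, n = 3 each; limma adjusted p = 0.664). The receptor gene ABCC8 had at most 0.302 TPM in any library. KCNJ8, the vascular pore gene of this class, had 7.34 ± 0.667 and 7.88 ± 0.436 TPM (limma adjusted p = 0.839).

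None of the other members passed under any alternative setting run: of 135 further limma values for these members, 0 had an adjusted p under 0.05, and the lowest was 0.185 for KCNIP2 without MYH7B ASO replicate 3. Over the same alternatives 0 to 310 of all tested genes were called. With a replicate block 0 of all tested genes were called, so those values say nothing about the members in particular. The settings share libraries, so the 135 values are not independent. With 3 libraries against 3 an exact permutation test cannot give a p below 0.1, so none was run.

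A wider list of potassium channel genes held 101 genes, or 100 without KCNIP4, of which 37 reached a mean of 1 TPM. Of these 37, 0 rose and 1 fell over all tested genes, beside 0.181% higher and 1.48% lower among all tested genes. Differences were above 0 in 18 and below 0 in 19, with a median of -0.03. Groups of 3 did not overlap in 3 genes that were higher and 4 that were lower, where 7.11% and 14.1% of all tested genes were separated in those directions. In the list 6 genes had an unadjusted p under 0.05, as did 2435 of all tested genes. By family, the EAG and KCNQ group (6 tested) had a median of 0.12, the KCNJ and SUR group (7 tested) -0.03, the Kv1 to Kv3 pore genes (5 tested) 0.02 and the K2P leak channels (3 tested) -0.40. The tested KCNIP genes (2) had a median of 0.07, the Kv4 pore and DPP genes (1) 0.36 and the KCNE genes (2) -0.40. The calcium- and sodium-activated channels (7 tested) had a median of -0.37, with 6 of the 7 below 0. The Kv beta genes (2 tested) had a median of 0.29 and the electrically silent Kv subunits (2 tested) 1.03.

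KCNMA1, the pore gene of the large-conductance calcium-activated channel, was the gene that fell. It had 5.57, 5.34 and 6.26 TPM with the scrambled ASO and 1.07, 1.62 and 2.04 TPM in MYH7B ASO replicates 2 to 4. The reordered replicate 1 had 5.21 TPM, close to the scrambled ASO libraries and apart from the other MYH7B ASO libraries. The difference was -1.40 (SE 0.25, limma adjusted p = 0.0340). For KCNMA1 the authors' deposited table lists -1.22 (their adjusted p-value, 1.07e-05). The call was lost with all 7 libraries (limma adjusted p = 0.237) and when any 1 of the 6 libraries was left out (limma adjusted p from 0.0839 to 0.107). KCNMB2, an auxiliary subunit of this channel, had 4.81 ± 1.12 and 2.50 ± 0.246 TPM (SD, n = 3 each), with a difference of -0.71 that did not pass (limma adjusted p = 0.206).

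KCNMA1 is known as a prominent channel gene of smooth muscle. The summed level of 5 smooth muscle markers was 941 to 1340 TPM with the scrambled ASO, 555 to 736 TPM in MYH7B ASO replicates 2 to 4 and 1094 TPM in replicate 1. Of the 5 markers 1 fell, beside 1.48% of all tested genes, MYH11, from 70.1 ± 10.2 to 12.9 ± 4.54 TPM (SD, n = 3 each; log2 difference -2.41, limma adjusted p = 0.00599). In replicate 1 MYH11 had 13.4 TPM, as low as in the other MYH7B ASO libraries. ACTA2 and TAGLN were also lower without overlap but did not pass (limma adjusted p = 0.0910 and 0.0649). In the authors' deposited table ACTA2 is at -0.67 (their adjusted p-value, 0.00463) and TAGLN at -1.04 (their adjusted p-value, 1.26e-06). CNN1 lay on the other side of 0, with a difference of 0.24 (limma adjusted p = 0.454). The summed level of 8 fibroblast markers was 2881 to 5173 TPM, 1344 to 2071 TPM and 4069 TPM in the same order, and 2 of the 8 fell. Of the 8, 5 had lower groups without overlap, beside 14.1% of all tested genes. Collagens carry most of that sum. TCF21 and PDGFRA, which mark fibroblast identity, were higher without overlap, at 8.40 ± 1.62 and 14.4 ± 3.42 TPM and at 23.7 ± 4.01 and 36.3 ± 4.27 TPM (SD, n = 3 each), and did not pass (limma adjusted p = 0.168 and 0.152). In the authors' deposited table they are at 0.72 and 0.61 (their adjusted p-values, 0.00270 and 0.00287). The totals were lower in the same 3 libraries as KCNMA1 and higher in replicate 1, and their part in its fall was not tested. In bulk RNA, fewer cells of a type and less RNA per cell cannot be told apart.

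In MYH7B ASO replicate 1 KCNIP4 was lowest, at 0.341 TPM. There the smooth muscle and fibroblast marker totals were higher than in replicates 2 to 4, while MYH11 was low at 13.4 TPM. The part of these markers in the KCNIP4 values was not tested. For the neuronal list, since KChIP4 is known from neurons, the sum of 7 markers was 26.1 to 37.5 TPM with the scrambled ASO, 20.6 to 31.1 TPM in MYH7B ASO replicates 2 to 4 and 77.3 TPM in replicate 1, of which TUBB3 alone gave 65.8 TPM. STMN2 was the 1 of 4 tested neuronal markers that fell (10.3 ± 1.20 to 2.47 ± 1.49 TPM, SD, n = 3 each; limma adjusted p = 0.0341), with 2.82 TPM in replicate 1. Among all tested genes 1.48% fell. SYT1 was lower without overlap, at 2.89 ± 1.16 and 1.11 ± 0.231 TPM, and did not pass (limma adjusted p = 0.266), while the authors' deposited table lists -0.81 for SYT1 (their adjusted p-value, 0.0155). The other tested neuronal markers overlapped between the groups. TUBB3 had 11.6 ± 4.05 and 16.3 ± 5.52 TPM (SD, n = 3 each; log2 difference 0.45, limma adjusted p = 0.511). SNAP25 had 4.41 ± 1.30 and 3.91 ± 0.814 TPM (SD, n = 3 each; log2 difference -0.12, limma adjusted p = 0.868). RBFOX3 and ELAVL4 were under 1 TPM in all libraries. The part of the neuronal markers in the KCNIP4 values was not tested. Atrial markers summed to 5259 to 6533 TPM with the scrambled ASO, 4058 to 4942 TPM in MYH7B ASO replicates 2 to 4 and 4796 TPM in replicate 1. MYL7, which is also in the cardiomyocyte list, carries most of that sum. In limma 0 of 5 passed and 3 had an unadjusted p under 0.05, beside 15.2% of all tested genes. Differences were above 0 in 3 of the 5 and below 0 in 2, with a median of 0.04. Ventricular markers summed to 579 to 1264 TPM and 291 to 627 TPM, with 123 TPM in replicate 1, and MYH7 carries most of that sum. Of these 4, 3 were below 0 and 1 above. MYL2 was the 1 called lower (limma adjusted p = 0.0121), beside 1.48% of all tested genes. Nodal markers summed to 95.5 to 132 TPM and 122 to 178 TPM, with 206 TPM in replicate 1. Of these 4, ISL1 was the 1 called higher (limma adjusted p = 0.0359), beside 0.181% of all tested genes. The endothelial, pluripotent and endodermal sums stayed at or under 24.9 TPM in every library.

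KCNG1 and KCNS3, the electrically silent subunits tested, lay higher in all 3 of MYH7B ASO replicates 2 to 4. These subunits form no channel alone and modify Kv2 channels. KCNG1 had 3.39, 3.79 and 7.48 TPM and then 11.7, 14.4 and 11.1 TPM, with 34.4 TPM in replicate 1. Its difference of 1.24 (SE 0.27) did not pass (limma adjusted p = 0.0708), whereas the authors' deposited table lists 1.08 (their adjusted p-value, 3.72e-05). KCNS3 had 3.43, 5.38 and 3.91 TPM and then 9.32, 7.63 and 7.62 TPM, but 4.27 TPM in replicate 1. Its difference of 0.82 (SE 0.21) did not pass either (limma adjusted p = 0.112), and 0.72 stands in the authors' deposited table (their adjusted p-value, 0.0241). Both were named after their values were seen. Of the 100 genes, 50 carry an adjusted p-value in the authors' deposited table, and 3 higher (KCNIP2, KCNG1 and KCNS3) and 1 lower (KCNMA1) were under 0.05, where 3.02% and 5.69% of all genes with one were higher and lower.

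**Figure D3:**
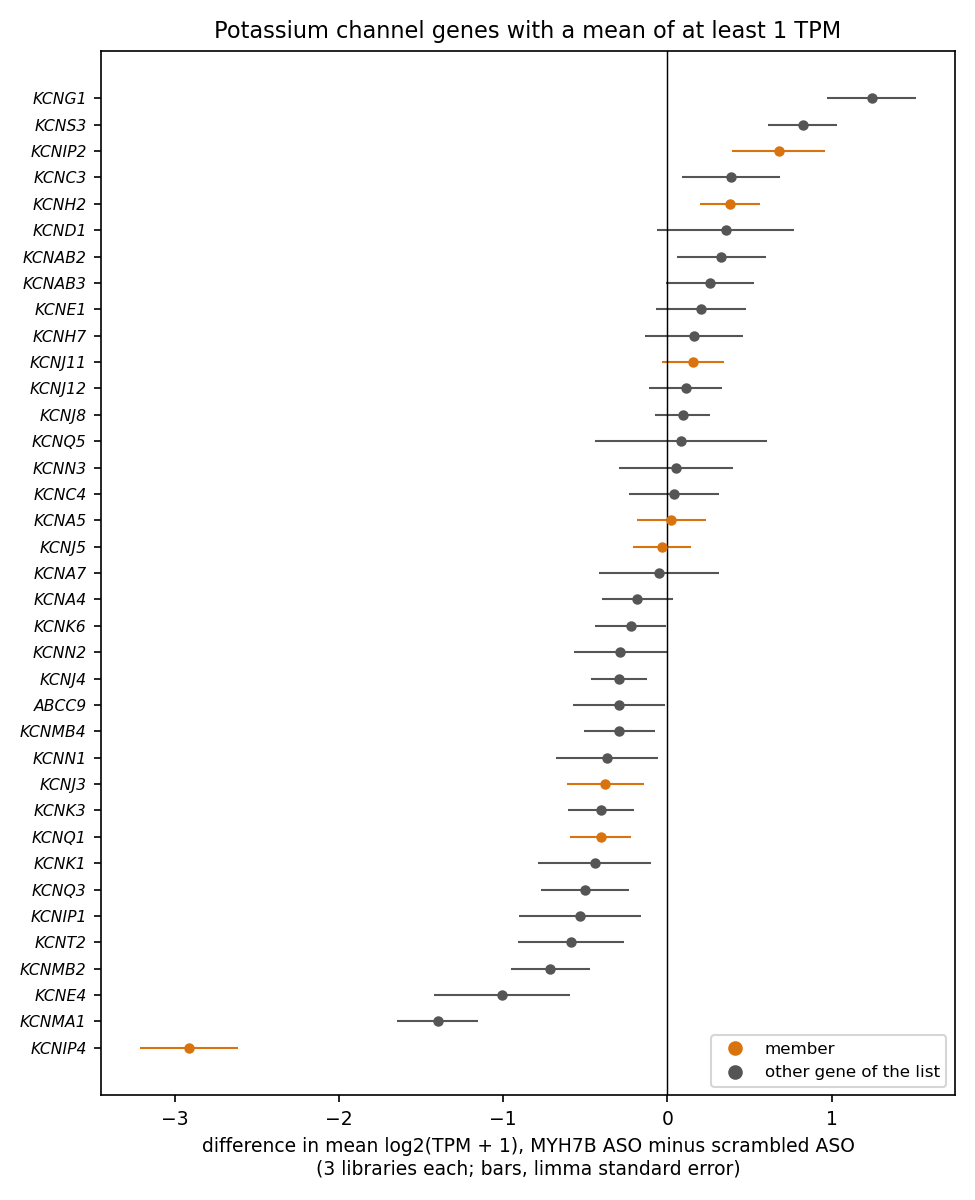
Difference in mean log2(TPM + 1), MYH7B ASO replicates 2 to 4 minus scrambled ASO, for the potassium channel genes tested, with 1 left out. Points are differences of 3 against 3 libraries, bars are limma standard errors and orange marks members; the genes run from KCNG1 at 1.24 to KCNMA1 at -1.40, with KCNIP4 apart at -2.91.

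KCNIP4 is among the longest genes measured. Its span was rank 21 from the longest of 15852 tested genes with an annotated span, whose median was 27.1 kb. Differences between the groups moved with span over all tested genes. Among genes spanning under 100 kb 0.667% were called lower and the median difference was 0.00. The corresponding values were 3.39% and -0.25 from 100 to 300 kb, and 12.5% and -0.56 from 300 kb to 1 Mb. Among the 37 genes over 1 Mb they were 13.5% (5 genes) and -0.71. KCNIP4 is counted among these 37, so this last share is not independent of the gene picked. KCNIP4 had the lowest difference of those 37, followed by GPC6 at -2.74 and CTNNA3 at -2.04. This placing describes the value on which KCNIP4 was picked.

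The other potassium channel genes split in the same way, as a description. Of the 15 tested genes of at least 100 kb, 10 were below 0 with a median of -0.38, and of the 22 shorter genes 9 were below 0 with a median of 0.07. Over all tested genes 78.0% of those of at least 100 kb and 49.8% of the shorter ones were below 0. KCNMA1 spans 769 kb, KCNQ1 404 kb and KCNJ3 160 kb, whereas KCNIP2 spans 17.9 kb, KCNH2 33.4 kb and KCNG1 19.5 kb. KCNS3, at 484 kb with a difference of 0.82, lay on the opposite side. Without a minimum level the medians of the long and short potassium channel genes were alike, at -0.03 and -0.04.

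**Figure D4:**
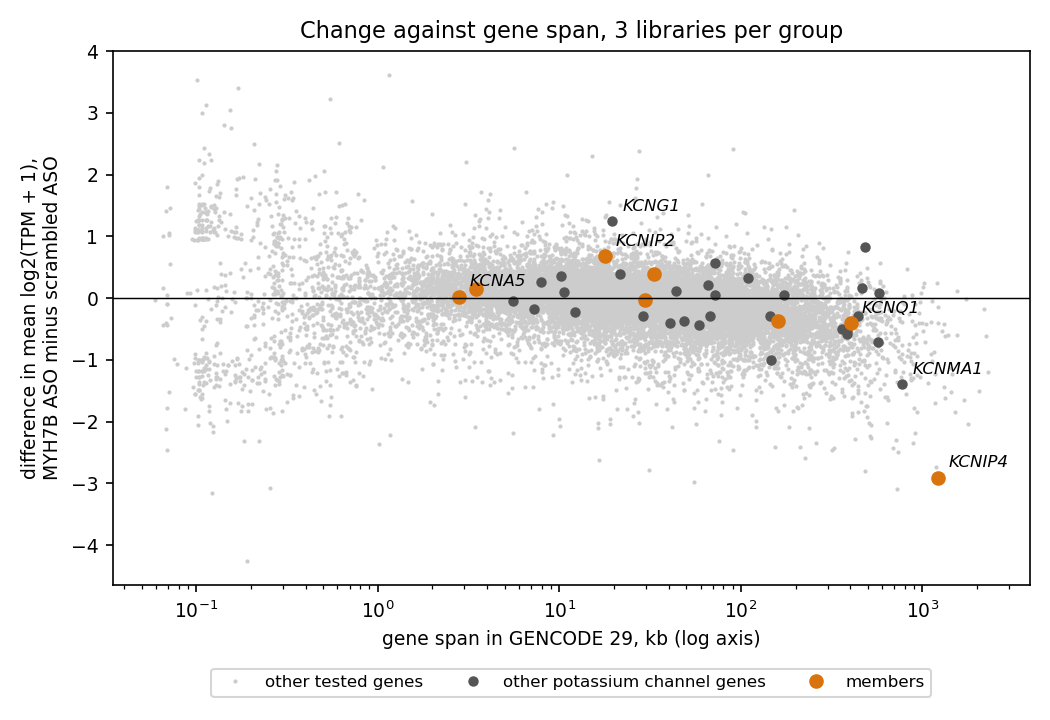
Difference in mean log2(TPM + 1) of 3 MYH7B ASO against 3 scrambled ASO libraries, plotted against gene span in kb on a log axis for all tested genes. Small grey points are other genes, dark points are other potassium channel genes and orange points are members; KCNIP4 lies at the lower right, at 1220.2 kb and -2.91.

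Around KCNIP4 itself, 8 annotated genes overlap its span and 1 of them reached the level for testing. That gene, PACRGL, lies on the opposite strand over the 3' end and had 8.73 ± 4.31 and 7.86 ± 2.38 TPM (SD, n = 3 each; limma adjusted p = 0.929). KCNIP4-IT1, a noncoding gene within it, stayed at or under 0.0192 TPM. AC110296.1, antisense within KCNIP4, had 1.03 ± 1.78 TPM with the scrambled ASO (SD, n = 3) and was listed at 0 in MYH7B ASO replicates 2 to 4. Its SD was larger than its mean, so the scrambled ASO libraries were uneven and no loss can be read from these values. AC110296.1 was not tested, nor was any other gene that overlaps a member apart from PACRGL. Downstream of KCNIP4, the nearest coding gene was SLIT2, an axon guidance ligand gene of 367 kb on the opposite strand. SLIT2 fell, from 21.1 ± 4.04 to 8.65 ± 2.12 TPM (SD, n = 3 each; log2 difference -1.20, SE 0.22, limma adjusted p = 0.0354). The nearest coding gene upstream, ADGRA3, an adhesion receptor gene, had 13.5 ± 3.18 and 15.1 ± 2.57 TPM (limma adjusted p = 0.762). MIR218-1 lies within SLIT2 and had 3.55 ± 6.15 TPM with the scrambled ASO, and was listed at 0 in MYH7B ASO replicates 2 to 4 (limma adjusted p = 0.594). For MIR218-1 too the scrambled ASO libraries were uneven, with an SD above the mean. The remaining near neighbours, SLIT2-IT1, AC096719.1 and RNU6-420P, were at or near 0.

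The 5 tested genes whose log2(TPM + 1) most closely followed KCNIP4 over the 6 libraries were GSTA1, MACROD2, BHLHE40, ACCS and Z97989.1. Their Pearson correlations ran from 0.993 to 0.999, a description over libraries that share the group difference. GSTA1, a glutathione transferase gene, had the highest, with 2.12 ± 0.279 and 0.580 ± 0.171 TPM (SD, n = 3 each). MACROD2, another gene of over 1 Mb, had 3.38 ± 0.892 and 0.534 ± 0.252 TPM (SD, n = 3 each), and BHLHE40, a transcriptional repressor gene, had 38.7 ± 1.12 and 31.2 ± 1.43 TPM (SD, n = 3 each). Among members, the correlation with KCNIP4 was 0.77 for KCNQ1, 0.48 for KCNJ3, -0.59 for KCNIP2 and -0.71 for KCNH2, over the same 6 libraries. For KCNJ5, KCNA5 and KCNJ11 it was 0.07, -0.15 and -0.33. The group difference on which KCNIP4 was picked enters all of these values.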

How the data were processed

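The authors deposited 1 table of TPM values for 7 libraries and 1 comparison table. The deposited comparison table gives a mean normalized count (a signal), a log2 fold change shrunken by the authors per the file headers, its standard error, a test score and p-values. DESeq2 and genome build GRCh38.p13 are named, without a role, per the submitters' processing notes. The aligner, the quantifier, the annotation release and the libraries that entered the comparison table are not given in the sources used here. No per-sample column was left unused (0).

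The column of MYH7B ASO replicate 1 fills 58721 positions, the number of genes in GENCODE 29. Its median correlation with the other libraries across genes was 0.408 as deposited, 0.955 with sorted GENCODE 29 identifiers and 0.416 with that order shifted by 1, beside 0.959 to 0.979 among the other 6. The reordering rests on all genes and was chosen after the data were examined.

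The 15988 genes averaging 1 TPM or more in the 6 libraries were tested on log2(TPM + 1) with limma 3.58.1 in R 4.3.3 (lmFit, eBayes with trend, no covariate, Benjamini-Hochberg over all tested genes), and called at an adjusted p under 0.05. KCNIP4 was given no p. The same script was tested on simulated data. Python 3.11.15, pandas 2.3.3, numpy 2.4.6, scipy 1.17.1 and matplotlib 3.10.9 made tables and plots. Promoter windows are from RefSeq and gene spans from GENCODE 29.

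The members and lists were chosen with earlier results of these data known. Named were the members, MYH7B, called potassium channel genes, tested KCNIP, KCND, DPP, KCNE, KCNJ and ABCC genes, noncoding genes at members, 3 neighbours on each side of KCNIP4, and the 5 genes most correlated with it. Lists were the potassium channel families, neuronal calcium sensors and markers of 10 cell classes. The alternatives were other pseudocounts (0.1 and 5), other level filters, rescaling, limma settings, replicate blocks, all 7 libraries, and each library left out. By name, 1 gene of the potassium channel list is not reported here.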

Additional observations from a re-analysis of the deposited data

Results flagged for a closer look

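The TPM of 39 genes whose values are given here was examined in the 4 MYH7B ASO libraries, and in 4 genes 1 library stood apart: its gap to the nearest of the other 3, divided by the range of the 4, exceeded Dixon's critical value at the 95% level. Chance gives about 1 in 20. KCND3 in MYH7B ASO replicate 1 was at 0.507 TPM, beside 0.0689, 0.108 and 0.0588 TPM in replicates 2 to 4, and within the scrambled ASO range of 0.106 to 0.564 TPM. KCNG1 in replicate 1 was at 34.4 TPM, beside 11.7, 14.4 and 11.1 TPM. BHLHE40 in replicate 1 was at 15.9 TPM, beside 30.4, 30.4 and 32.9 TPM. ABCC8 in replicate 2 was at 0.302 TPM and was listed at 0 in the other 3. Replicate 1 is the library whose column was reordered, and it is in no group mean or test of the 6 libraries.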

How the results depend on the processing

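The KCNIP4 difference of -2.91 was -3.80 with a pseudocount of 0.1 and -1.64 with 5, as that scale implies. It was -3.15 to -2.70 when each of the 6 libraries was left out, -3.04 with all 7, -2.98 with title numbers as the replicate block and -2.71 with description numbers. Over all genes 265 were called (29 higher, 236 lower). The count was 40 without a level filter, 150 without the trend, 170 with all 7 libraries and 53 to 149 when each library was left out. It fell to 0 with title numbers as the replicate block and 0 with description numbers. It was also 0 with the title block over all 7 libraries, an alternative chosen after the data were seen. In these settings 1718, 1096 and 1773 genes had an unadjusted limma p under 0.05. With a block, a library without a same-numbered partner drops out of the group difference. The 6 libraries hold 2 such pairs by either numbering, and the 7 hold 3 by title. Little is then left to estimate the spread, so these counts of 0 cannot show what pairing itself does. The split was 56 higher of 277 with median-ratio rescaling and 55 higher of 258 with quantile normalization. Same-numbered libraries were correlated in their deviations at 0.077 and 0.113 by title, beside -0.075 to 0.044 for the 7 pairs of unlike number. Both title values thus lay above all unlike pairs of the 6 libraries. By description they were -0.075 and -0.042, beside -0.069 to 0.113. Over 7 libraries the title values overlapped, at 0.019 to 0.141 and -0.165 to 0.156. The numbers were not treated as pairs in the main fit, and pairing by title is not excluded. The block by description number moved the median of all genes to -0.11, beside -0.04. The potassium channel list had 1 call, KCNMA1. It had 2 with median-ratio rescaling (KCNG1 and KCNMA1), 0 without a filter, 0 with each replicate block, 0 with all 7 libraries, 0 with these and the block, and 0 to 1 when each library was left out. In these settings with 0 calls, 3 to 7 list genes had an unadjusted limma p under 0.05. KCNMA1 lost its call in 12 of 18 alternatives, and KCNG1 gained one in 4 of 19. Signs turned for 4 members, none of them called. KCNJ2 (-0.18) was 0.0014 with the title block. KCNA5 (0.02) was -0.17 with the title block and -0.12, -0.08 and -0.03 without scrambled ASO replicate 1, MYH7B ASO replicate 3 and MYH7B ASO replicate 4 (leaving out each library, -0.12 to 0.18). KCNJ11 (0.15) was -0.045 with all 7 libraries and -0.13 with these and the title block. KCNJ5 (-0.03) was 0.016 with median-ratio rescaling, 0.10 with quantile normalization, 0.024 with the title block and 0.041 without MYH7B ASO replicate 4 (leaving out each library, -0.10 to 0.041). With a block the sign rests on the same-numbered pairs alone. The cause of the other shifts was not tested. KCNMA1 has no value at a mean of at least 5 TPM, which it does not reach. TPM keeps no depth, so counting error could not be estimated, and the errors given are replicate spread.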

Other observations

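The KChIPs belong to a wider family of neuronal calcium sensors, small EF-hand proteins. Of 11 rows for the other members of this family, 7 were tested and 0 were called in limma, beside 1.66% of all tested genes, with 3 at an unadjusted p under 0.05, beside 15.2%. VSNL1, the visinin-like sensor gene and the most abundant of them with the scrambled ASO, had 31.0, 28.4 and 35.2 TPM with the scrambled ASO and 8.35, 21.5 and 22.1 TPM in MYH7B ASO replicates 2 to 4, with 14.9 TPM in replicate 1. Its groups did not overlap, and its log2 difference of -0.94 did not pass (limma adjusted p = 0.228). NCS1, a sensor that also binds Kv4 channels, had 24.0, 19.4 and 20.9 TPM and then 32.5, 31.8 and 25.5 TPM, with 38.9 TPM in replicate 1. All 4 MYH7B ASO libraries were above all scrambled ASO libraries, and the difference of 0.46 did not pass (limma adjusted p = 0.230), while the authors' deposited table lists 0.49 for NCS1 (their adjusted p-value, 0.0120). GUCA1B, a guanylate cyclase activator gene, had 2.42 ± 0.824 and 0.776 ± 0.270 TPM (SD, n = 3 each), also without passing (limma adjusted p = 0.259), and -0.77 stands in the authors' deposited table for GUCA1B (their adjusted p-value, 0.0299).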
